A study of Mus musculus with 89 samples.

Results

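The genes followed here encode the mitochondrial ribosomal proteins of mouse embryonic stem cells (ESCs). They were taken by symbol, as the rows whose gene name is Mrpl or Mrps followed by a number and at most 1 letter, without pseudogenes. This gave 78 of the 54146 gene rows of the expression tables, 49 named for the large subunit (Mrpl) and 29 for the small subunit (Mrps), on 17 chromosomes. The study asked what the orphan nuclear receptors Esrrb and Nr5a2 do in ESCs, and RNA-seq was done in 20 libraries out of 89 samples, the others not being analysed here. The cells are EKOiE ESCs, in which both endogenous copies of Esrrb are inactivated and an Esrrb transgene is switched on by doxycycline, and EKOiE NrKO, a derivative in which the exon of Nr5a2 that encodes the start of its DNA-binding domain is disrupted. Both were grown on gelatine, for 2 days with 1 µg/ml doxycycline or without it. EKOiE with doxycycline is the control (+E+N), EKOiE without doxycycline lacks Esrrb (-E), EKOiE NrKO with doxycycline lacks Nr5a2 (-N), and EKOiE NrKO without doxycycline lacks both (-E-N). Each of these 4 states was measured in serum with leukaemia inhibitory factor (FCS/LIF, 2 libraries a state) and in the same cytokine with inhibitors of Mek and Gsk3 (2i/LIF, 3 libraries a state). The study describes the replicates of each state as independent experiments, and mentions RNA-seq of EKOiE NrKO clone 4, though the labels of the libraries name no clone. A state without Nr5a2 may thus stand for a single clone. Every state without Esrrb was also without doxycycline, and every state with Esrrb had the drug. Loss of Esrrb and absence of doxycycline thus cannot be told apart in any comparison here.

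The mitochondrial ribosome is made of RNA encoded in the mitochondrion and proteins encoded in the nucleus, which are made in the cytosol and imported. It translates only the few mRNAs of the mitochondrial genome, which code for core subunits of the respiratory chain and of ATP synthase, and so links nuclear gene expression to oxidative phosphorylation. The small subunit binds the mRNA and decodes it, and the large subunit joins the amino acids and guides the new chain to the inner membrane. Naive ESCs grown in 2i/LIF or FCS/LIF use oxidative phosphorylation beside glycolysis. Some symbols mislead. Mrps30 and Mrps18a sit in the large subunit, and Mrps36 is now regarded as a component of the 2-oxoglutarate dehydrogenase complex.

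The libraries held 36.5 M to 45.4 M gene counts in FCS/LIF and 26.7 M to 32.5 M in 2i/LIF (M, 1000000). Every member was measured deeply, the lowest count of any member in any library being 298, and all 78 passed the filter on low counts in both media. Esrrb in FCS/LIF stood at 271 and 353 CPM (counts per 1000000 counts, TMM scale) in +E+N and at 74.2 and 65.1 in -E, a change of -2.18 on the log2 scale (SE 0.13, edgeR adjusted p = 2.754e-05). In 2i/LIF it stood at 515 to 609 CPM in +E+N, at 380 to 441 in -E and at 104 to 171 in -E-N. The difference between -E and +E+N in 2i/LIF, -0.46 (SE 0.16), did not pass the test (edgeR adjusted p = 0.116), and reads of the inactivated endogenous copies cannot be told apart from reads of the transgene in these counts. The study's qPCR with primers in the deleted region of Nr5a2 found no wild-type transcript in the knockout clones. Counts of Nr5a2 as a whole gene do not check a disrupted exon. In FCS/LIF they were 27.2 and 25.6 CPM in -N beside 39.9 and 36.1 in +E+N (-0.55, SE 0.08, edgeR adjusted p = 0.02115), and in 2i/LIF the difference was -0.05 (SE 0.21, edgeR adjusted p = 0.9241). In -E, which keeps Nr5a2, the difference from +E+N was -0.98 (SE 0.09, edgeR adjusted p = 0.0001326) in FCS/LIF and -0.59 (SE 0.21, edgeR adjusted p = 0.1287) in 2i/LIF. The 8 markers of pluripotent ESCs were present in every group, with a summed level of 2540 to 2654 TPM (transcripts per 1000000 transcripts) in +E+N and 1371 to 1567 in -E-N in FCS/LIF, and of 2514 to 2782 and 1287 to 1727 in 2i/LIF. The 4 trophectoderm markers went the other way, from 222 to 268 TPM in +E+N to 1065 to 1666 in -E-N in FCS/LIF and from 8.46 to 12.2 up to 166 to 284 in 2i/LIF. All results below are from bulk RNA, in which fewer cells of a kind and less RNA per cell cannot be told apart, and the part of these markers in them was not tested. The summed level of 6 fibroblast markers was at most 6.87 TPM in any group, with at most 1 marker at 0 in every library of a group, and that of 5 primitive endoderm markers in FCS/LIF was 9.05 to 13.1 TPM in +E+N, 21 to 21.8 in -E, 7.61 to 8.56 in -N and 20.5 to 24.4 in -E-N. In 2i/LIF the latter was 1.46 to 2.7 TPM in +E+N and 1.89 to 4.36 in -E-N. The fibroblast sums hide opposite moves. In -E-N in FCS/LIF Dcn (3.455), Col3a1 (2.35), Col1a2 (1.66) and Col1a1 (1.46) rose and Thy1 (-0.61) fell, each at an edgeR adjusted p under 0.05. In -E-N in 2i/LIF Col1a2 (3.06) rose, Thy1 (-2.04) fell and Col1a1 (-1.42) did not pass. The endoderm sums hide opposite moves too. In -E-N in FCS/LIF Dab2 rose (1.57, edgeR adjusted p = 8.038e-06) and Gata6 fell (-1.09, edgeR adjusted p = 0.01244). Gata4 (-0.07), Sox17 (-0.24) and Sox7 (-0.35) did not pass there. In -E-N in 2i/LIF Sox17 rose (2.14, edgeR adjusted p = 0.0114), Gata4 fell (-1.52, edgeR adjusted p = 0.008189) and Dab2 (-0.64) did not pass. The part of these markers was not tested either.

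On the TPM scale, which divides by transcript length and so allows a comparison between genes, the members differed 18.7-fold in level. Mrpl17 had the highest mean over the 8 groups of state and medium (326 TPM, SD 78.0 over the group means), followed by Mrps21 (273 TPM, SD 96.1) and Mrpl42 (214 TPM, SD 9.08). At the other end stood Mrpl19 (17.4 TPM, SD 3.93), Mrpl1 (20.7 TPM, SD 3.20) and Mrpl57 (23.3 TPM, SD 2.64). The ranges over libraries of Mrpl17 and Mrps21 overlapped (227 to 434 and 158 to 386 TPM), as did those of Mrpl19, Mrpl1 and Mrpl57 (13 to 27.2, 15.5 to 26.3 and 18.1 to 28.6 TPM). These ranges pool all states and both media, so the order given is that of the means and need not hold within each library. The median member stood at 72.4 TPM, 71.4 for the large subunit and 74.6 for the small. The mRNAs of proteins that share a particle were thus spread over more than an order of magnitude, the small subunit genes reaching from 26.9 to 273 TPM.

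**Figure D1:**
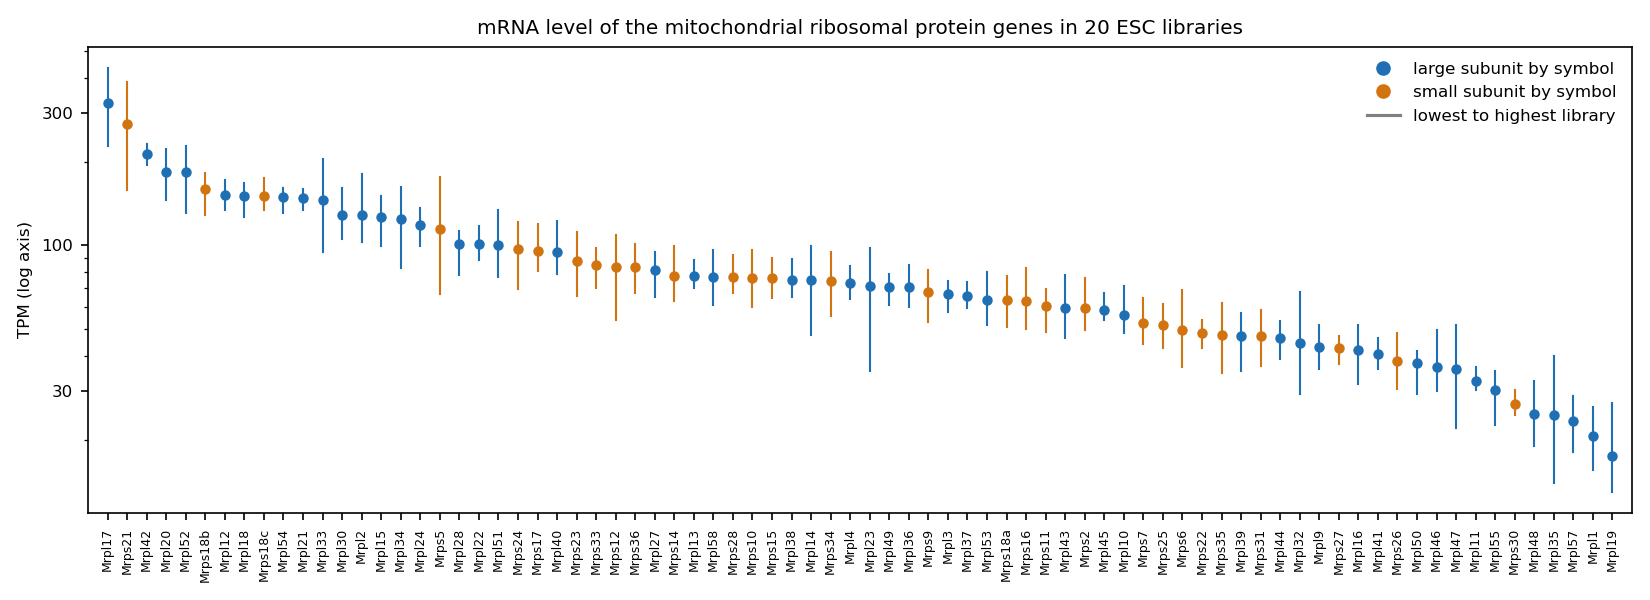
Level of each of the 78 members in TPM (log axis), ordered by the mean of the 8 group means (points), with vertical lines from the lowest to the highest of the 20 libraries. Members of both subunits are mixed along most of the range, from Mrpl17 at 326 TPM to Mrpl19 at 17.4 TPM.

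Across groups the members moved little. The fold between the highest and the lowest of the 8 group means in CPM had a median of 1.39 over the members, from 1.11 for Mrps18a to 2.11 for Mrpl14, and of 2.01 over the 16147 genes of the fit of all 8 groups. It exceeded 1.5 in 25 of the 78 members. Mrpl14 and Mrpl23 were the 2 above 2. The median over all genes is not matched for level: a gene could enter that fit with 20 counts in the libraries of a single group, while no member was below 298 in any library. The summed level of all members lay between 6014 and 6997 TPM in every library. In FCS/LIF the sums of -E-N (6531 and 6532 TPM) lay between those of +E+N (6415 and 6665 TPM), while on the TMM scale they were lower (3779 and 3812 CPM beside 4464 and 4190). In 2i/LIF they were lower in all 3 libraries of -E-N (6014 to 6491 TPM) than in the 3 of +E+N (6790 to 6847 TPM). The 2 subunits kept nearly the same proportion: the small subunit sum was between 0.522 and 0.572 of the large subunit sum in each of the 20 libraries. In 2i/LIF it was 0.522 to 0.531 in -E-N, below the 0.533 to 0.556 of +E+N and overlapping the 0.527 to 0.543 of -N.

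**Figure D2:**
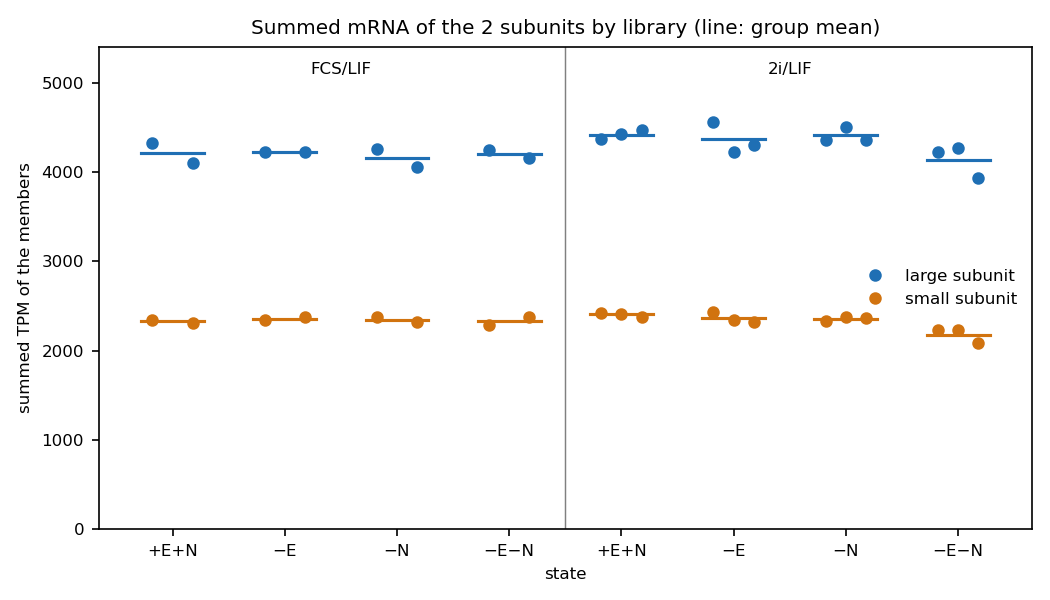
Summed TPM of the 49 large subunit and 29 small subunit genes in each library, by state and medium; points are libraries and lines group means, on an axis from 0. The small subunit sum stays at 0.522 to 0.572 of the large subunit sum, and in 2i/LIF the -E-N libraries lie lowest for the small subunit. For the large subunit -E replicate 2 (4228 TPM) lies below -E-N replicate 2 (4265 TPM) in that medium.

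The nuclear receptors Esrrb and Nr5a2 bind DNA as monomers at a short extended element, for Esrrb typically TCAAGGTCA and for Nr5a2 typically TCAAGGTCA or TCAAGGCCA. Promoters of mitochondrial genes often carry sites for the factors Gabpa (ETS family), Nrf1 and Yy1. Promoter sequence (RefSeq, GRCm38.p6, 250 bases before to 50 after the annotated start) was found for 69 of the 78 members and 11498 of the genes tested. Each motif was searched on both strands in the first listed start of each gene. Neither TCAAGGTCA nor TCAAGGCCA was in any of the 69 windows, against 0.252% and 0.374% of the promoters of all tested genes. The shorter AAGGTCA, which is also the end of TCAAGGTCA, was in 4 of 69 (5.8%, Mrpl12, Mrpl36, Mrps15 and Mrps21) and in 3.27% of all. The letters AAGATGGC (Yy1) were in 12 of 69 members (17.4%) and 4.41% of all, CCGGAAG (ETS) in 25 of 69 (36.2%) and 17% of all, and GCATGCGC (Nrf1) in 8 of 69 (11.6%) and 5.19% of all. These are matches of letters in a short window, not measured sites. The windows below belong to the members whose mRNA moved most after loss of both receptors and for which the sequence was at hand: Mrps24 (minus strand, chr11:5707652-5707951), Mrps12 (minus strand, chr7:28741772-28742071), Mrpl39 (minus strand, chr16:84735195-84735494) and Mrpl23 (plus strand, chr7:142532782-142533081). Capitals mark matches to the motifs searched: AAGATGGC in Mrps24, GCCATCTT (AAGATGGC on the other strand) and CCGGAAG in Mrps12, and GCATGCGC with its overlapping reverse in Mrpl39, while the window of Mrpl23 holds none.
Mrps24: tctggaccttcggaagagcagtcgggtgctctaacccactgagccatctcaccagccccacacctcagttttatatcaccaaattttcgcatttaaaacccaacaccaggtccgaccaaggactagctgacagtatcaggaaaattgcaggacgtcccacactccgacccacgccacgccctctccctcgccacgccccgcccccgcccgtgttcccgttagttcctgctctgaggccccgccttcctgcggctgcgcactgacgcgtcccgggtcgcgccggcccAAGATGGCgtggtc
Mrps12: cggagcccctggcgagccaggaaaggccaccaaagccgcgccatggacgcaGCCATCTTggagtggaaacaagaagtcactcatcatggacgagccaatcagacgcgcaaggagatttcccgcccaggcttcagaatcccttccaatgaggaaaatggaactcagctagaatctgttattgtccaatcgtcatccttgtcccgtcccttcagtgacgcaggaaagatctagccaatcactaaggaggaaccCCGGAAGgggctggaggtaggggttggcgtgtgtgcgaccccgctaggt
Mrpl39: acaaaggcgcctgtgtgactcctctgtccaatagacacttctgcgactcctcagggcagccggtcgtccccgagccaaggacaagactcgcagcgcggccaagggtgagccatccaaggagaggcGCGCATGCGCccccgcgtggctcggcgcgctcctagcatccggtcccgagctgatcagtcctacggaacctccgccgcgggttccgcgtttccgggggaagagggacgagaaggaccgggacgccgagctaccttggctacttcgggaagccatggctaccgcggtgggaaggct
Mrpl23: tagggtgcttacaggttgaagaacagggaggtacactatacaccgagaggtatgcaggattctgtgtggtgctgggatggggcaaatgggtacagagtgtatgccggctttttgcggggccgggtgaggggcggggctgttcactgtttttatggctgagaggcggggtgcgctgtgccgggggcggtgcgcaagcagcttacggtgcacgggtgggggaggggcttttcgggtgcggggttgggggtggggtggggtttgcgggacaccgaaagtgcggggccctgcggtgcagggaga

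Gene starts on opposite strands lay within 1000 bases of each other for 33 of the 78 members (42.3%) and for 15% of the 14236 protein-coding genes tested (GENCODE vM21). Such head-to-head partners include Sars2, the mitochondrial seryl-tRNA synthetase gene, 172 bases upstream of the start of Mrps12, Zfp189 upstream of Mrpl50, and Mrpl46 with Mrps11, which are both members.

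Loss of both receptors in FCS/LIF was followed by lower mRNA of many members. Against +E+N, 31 of the 78 members fell in -E-N (39.7%, edgeR adjusted p under 0.05) and 0 rose, where 21.8% of all 15636 genes tested fell and 24.9% rose. The 31 were 18 of 49 large and 13 of 29 small subunit genes, and the median log2 fold change was -0.16 over the members (-0.18 large, -0.13 small) beside 0.00 over all genes. Changes were mostly small. At the study's limits (adjusted p under 0.01 and fold change over 1.5), which 18.8% of all genes passed, 2 members remained, Mrps24 and Mrpl15. Without -E-N replicate 2 the count at an adjusted p under 0.05 was 20, and 16 members were called whichever library was left out. The TMM scaling (trimmed mean of M-values) assumes that most genes keep their level, and this choice set the direction of many small changes. On the authors' TPM the median of all genes itself shifted by 0.13 in this comparison, and limma on log2(TPM + 1) called 13 members lower and 10 higher, among them Mrps18a, Mrps36 and Mrpl43. All 13 were among the 31, and none of the 31 was called higher. With library medians set equal (chosen after seeing the data) the same fit called 28 members lower, 27 of them among the 31, and 0 higher. The shares of all genes called on TPM are not given, here and in the comparisons below, so counts on TPM have no background beside them. Relative to the median of all genes the members stood 0.16 lower on the TMM scale and 0.11 lower on the TPM scale, with 67 and 58 of 78 members below that median. The smallest changes called were those of Mrps30 (-0.19, SE 0.06), Mrpl51 (-0.21, SE 0.06) and Mrps14 (-0.22, SE 0.07).

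Mrps24, which corresponds to the bacterial small subunit protein S3 at the mRNA entry, had the lowest fold change. In FCS/LIF the control libraries had 61.8 and 57.4 CPM, loss of Esrrb left 42.8 and 42.3, loss of Nr5a2 53.8 and 52.1, and loss of both 34.4 and 36.0. The libraries of the 4 states did not overlap, those of -E-N being lowest and those of -N lying between +E+N and -E. The log2 fold change against +E+N was -0.78 (SE 0.06, edgeR adjusted p = 3.046e-05) in -E-N and -0.50 (SE 0.06, edgeR adjusted p = 0.0009826) in -E, and in -N it was -0.19 (SE 0.06) and did not pass (edgeR adjusted p = 0.17). In 2i/LIF the same gene stood at 59.8, 62.4 and 54.4 CPM in +E+N and at 43.6, 43.8 and 38.9 in -E-N, again without overlap, a fall of 0.47 on the log2 scale (SE 0.08, edgeR adjusted p = 0.0004207). The libraries of -E (59.9, 56.3 and 52.1 CPM) and -N (52.7, 51.4 and 55.1 CPM) overlapped those of +E+N there.

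Mrpl15, the counterpart of a core protein of the bacterial large subunit, showed the same order of states in FCS/LIF. The +E+N libraries had 179 and 174 CPM, those of -N 158 and 151, those of -E 141 and 140 and those of -E-N 110 and 108, with no overlap between states. The log2 fold change was -0.72 (SE 0.05, edgeR adjusted p = 1.393e-05) in -E-N and -0.35 (SE 0.05, edgeR adjusted p = 0.001962) in -E. In 2i/LIF its -E-N libraries, 135, 127 and 117 CPM, lay below the 139, 149 and 139 CPM of +E+N, and the change of -0.16 (SE 0.08) did not pass the test (edgeR adjusted p = 0.14).

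Mrpl39, a large subunit protein without a bacterial counterpart, stood at 78.7 and 79.3 CPM in +E+N and at 57.0 and 49.8 CPM in -E-N in FCS/LIF (log2 fold change -0.58, SE 0.08, edgeR adjusted p = 0.0003739). In 2i/LIF it stood at 76.8, 78.7 and 77.8 CPM in +E+N and at 59.3, 53.7 and 56.5 CPM in -E-N (log2 fold change -0.45, SE 0.08, edgeR adjusted p = 0.000669). The levels of the 2 media were thus alike in both states. Mrpl47, the counterpart of a protein beside the bacterial exit tunnel, fell by 0.50 (SE 0.07) in FCS/LIF and by 0.30 (SE 0.09) in 2i/LIF, the second call being lost without -E-N replicate 3 (-0.23, edgeR adjusted p = 0.0661). In all, 14 members fell in -E-N in both media, which is 45.2% of the FCS/LIF list and 63.6% of the 2i/LIF list, and 30 of the 31 members that fell in FCS/LIF had an estimate below 0 in 2i/LIF (96.8%). Over the 13844 genes tested in both fits, 41% of those that fell in FCS/LIF and 47.6% of those that fell in 2i/LIF fell in both, and 71.3% of those that fell in FCS/LIF had an estimate below 0 in 2i/LIF. Whether the members differ from other genes in this was not tested.

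With loss of Esrrb alone in FCS/LIF 12 members fell (15.4%, 8 large and 4 small) and 0 rose, where 9.55% of all genes fell and 9.78% rose. No member passed the study's limits. The smallest changes called were those of Mrpl17 (-0.20, SE 0.05), Mrps9 (-0.21, SE 0.06) and Mrpl47 (-0.26, SE 0.07). The lowest log2 fold changes were those of Mrps24 (above), Mrpl57 (-0.50, SE 0.10, edgeR adjusted p = 0.007744), a small protein of the large subunit, and Mrpl39 (-0.36, SE 0.08, edgeR adjusted p = 0.0116). Mrpl57 stood at 14.4 and 14.6 CPM in +E+N and at 10.3 and 10.5 in -E. The calls of Mrpl57 and Mrpl39 were lost when either library of -E was left out, which brought the count of members called to 2. Without +E+N replicate 1 it was 5. Mrps24 and Mrpl15 were called whichever library was left out. On log2(TPM + 1) 1 member was called higher and 4 lower, beside a shift of the median of all genes of 0.09.

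Loss of Nr5a2 alone in FCS/LIF changed 0 members in edgeR without the replicate block and in the limma fits (DESeq2 also called 0 members). Of all genes 2.0% changed in either direction. An unadjusted p under 0.05 was found for 9 members, a limit at which the share of all genes is not given. The median log2 fold change was -0.06 over the members and -0.01 over all genes. Of the 78 estimates 65 were below 0 and 60 below the median of all genes.

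When Esrrb was withdrawn from cells that already lacked Nr5a2 in FCS/LIF (-E-N against -N), 21 members fell (26.9%, 10 large and 11 small) and 0 rose, where 14.4% of all genes fell and 18.6% rose. Mrps24 fell by 0.59 (SE 0.06, edgeR adjusted p = 0.0003069) and was the only member past the study's limits, which 10.1% of all genes passed. It was followed by Mrpl15 (fell by 0.51, SE 0.05) and Mrpl39 (fell by 0.44, SE 0.08), and the smallest changes called were those of Mrpl17 (-0.16, SE 0.05), Mrps2 (-0.20, SE 0.06) and Mrpl1 (-0.20, SE 0.06). Without -E-N replicate 1, -E-N replicate 2 or -N replicate 1 the count was 11, 9 and 8, and 6 members were called whichever library was left out: Mrpl15, Mrpl39, Mrps17, Mrps23, Mrps24 and Mrps31. On log2(TPM + 1), where the median of all genes shifted by 0.10, 4 members were called lower and 2 higher. The interaction of the losses, which asks whether the change in -E-N departs from the sum of the changes in -E and -N on the log2 scale, was called for 0 members in edgeR (1 with an unadjusted p under 0.05, and 0 in DESeq2) and for 0.102% of all genes.

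In 2i/LIF the single losses left the members nearly where they were. In -E, 0 members changed in edgeR (8 with an unadjusted p under 0.05, 2 in DESeq2, 2 in edgeR without -E replicate 1), where 6.13% of all genes changed. The replicate numbers of the libraries paired the samples in this comparison, and when they entered as a block 2 members rose and 2 fell: Mrps14 (0.24, SE 0.06, edgeR adjusted p = 0.0132), Mrpl50 (0.20, SE 0.05, edgeR adjusted p = 0.0225), Mrps2 (-0.22, SE 0.05, edgeR adjusted p = 0.0143) and Mrps36 (-0.20, SE 0.06, edgeR adjusted p = 0.0397). In -N, Mrpl50, a large subunit protein without a bacterial counterpart, rose by 0.24 (SE 0.07, edgeR adjusted p = 0.04091) and Mrpl28, the counterpart of a bacterial large subunit protein, fell by 0.23 (SE 0.06, edgeR adjusted p = 0.03242), where 4.57% of all genes rose and 5.91% fell. Neither passed the study's limits. The call of Mrpl28 was lost without any one of the 6 libraries and that of Mrpl50 without 4 of them, +E+N replicates 2 and 3 and -N replicates 1 and 2. With the replicate block 4 members rose and 2 fell in -N, both of the above kept their call, and Mrpl23 was among those that rose (0.30, SE 0.08, edgeR adjusted p = 0.0206). The shares of all genes called with the block are not given, so the blocked counts of -E and -N cannot be set against the shares above.

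**Figure D3:**
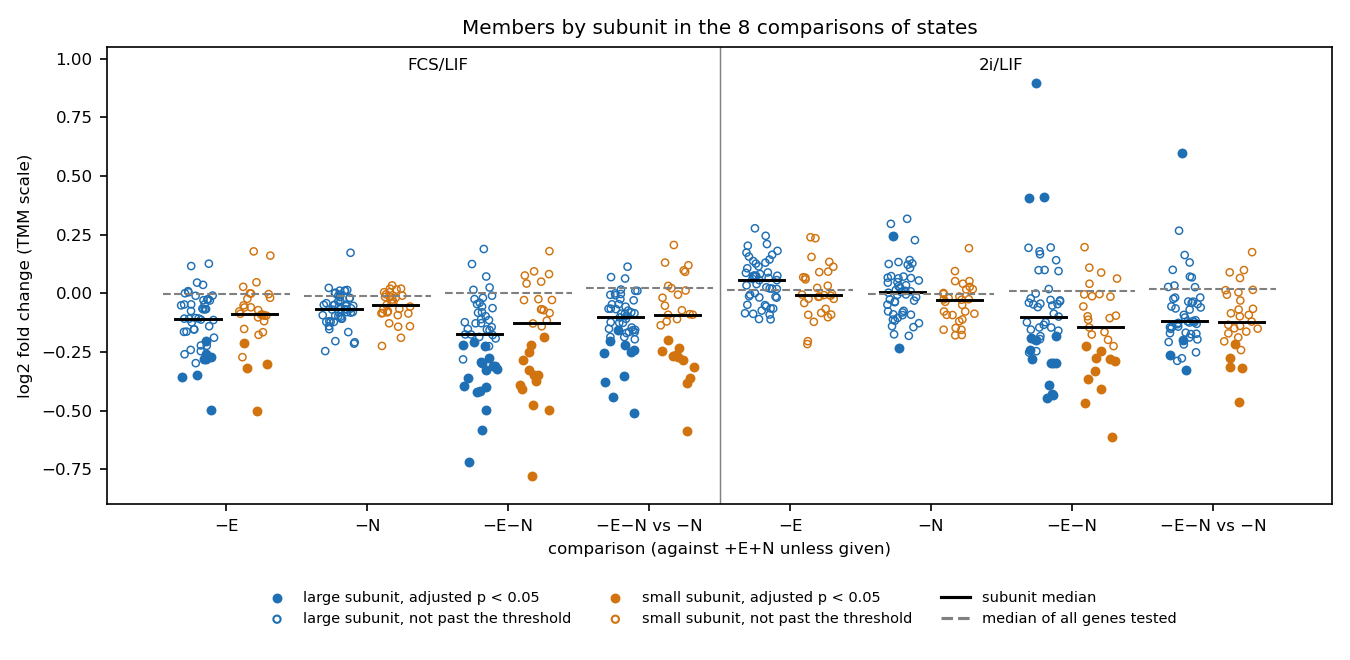
Log2 fold change (TMM scale) of each of the 78 members in the 8 comparisons of states, by subunit; filled points passed an adjusted p of 0.05, black lines are subunit medians and dashed lines the median of all genes tested. The members spread below the median of all genes in FCS/LIF and in -E-N in 2i/LIF, with a single point far above it in 2i/LIF (Mrpl23, 0.89). On the TPM scale 10 members were called higher in -E-N in FCS/LIF, unlike the points shown, and 0 with library medians set equal.

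With loss of both receptors in 2i/LIF 22 members fell (28.2%, 12 large and 10 small) and 3 rose (3.8%), where 21.0% of all 14355 genes tested fell and 19.9% rose. The median log2 fold change was -0.12 over the members (-0.10 large, -0.15 small) and 0.01 over all genes, and the TPM scale gave nearly the same counts, 19 lower and 3 higher. Of the 25 calls 18 were made whichever library was left out. At the study's limits, which 18.6% of all genes passed, 2 members remained, Mrps12 and Mrpl23.

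Mrps12, the counterpart of the bacterial decoding-site protein S12, stood at 50.1, 46.9 and 43.7 CPM in +E+N and at 34.4, 33.7 and 23.1 CPM in -E-N in 2i/LIF. The groups did not overlap, and replicate 3 of -E-N, which also had the lowest sum of all members, was far below the other two. The log2 fold change was -0.61 (SE 0.13, edgeR adjusted p = 0.002969). In FCS/LIF it stood at 36.2 and 30.8 CPM in +E+N and at 24.9 and 23.9 in -E-N (fell by 0.47, SE 0.12, edgeR adjusted p = 0.01156), a call that was lost without +E+N replicate 1 (-0.35, edgeR adjusted p = 0.0754) or -E-N replicate 2 (-0.46, edgeR adjusted p = 0.0722). Its head-to-head neighbour Sars2 had log2 fold changes of -0.05 (SE 0.12, edgeR adjusted p = 0.769) in FCS/LIF and -0.27 (SE 0.08, edgeR adjusted p = 0.0213) in 2i/LIF.

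Among the others that fell in 2i/LIF were Mrpl28 (-0.43, SE 0.06, edgeR adjusted p = 0.0001522), from 77.3, 72.5 and 73.7 CPM in +E+N to 55.1, 58.1 and 50.8 in -E-N, and Mrps36 (-0.41, SE 0.08, edgeR adjusted p = 0.001111), from 33.7, 37.4 and 37.0 CPM to 25.6, 26.4 and 28.5. Neither gene overlapped between these groups. In FCS/LIF Mrps36 stood at 27.3 and 27.5 CPM in +E+N and 26.8 and 27.7 in -E-N, so the level of -E-N in 2i/LIF was that of all states in FCS/LIF.

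Mrpl23 rose, where most of the members called fell. This gene encodes the counterpart of a protein at the exit tunnel of the bacterial large subunit and had the highest log2 fold change of all members in -E-N in 2i/LIF, 0.89 (SE 0.11, edgeR adjusted p = 5.724e-05). Its +E+N libraries had 14.5, 16.7 and 16.9 CPM, those of -E 18, 16.9 and 21.9, those of -N 18.9, 19.1 and 21.3, and those of -E-N 29.2, 27.3 and 32.0. The -E-N libraries lay above all others of this medium, and the -E and -N libraries at or above those of +E+N. In FCS/LIF all 8 libraries lay between 28.7 and 33.9 CPM, the level of -E-N in 2i/LIF, and the change in -E-N there was -0.10 (SE 0.08, edgeR adjusted p = 0.37). Mrpl23 ends 34782 bases before H19, an imprinted non-coding RNA on the other strand, beyond which lies Igf2. In 2i/LIF H19 had 1.48, 1.23 and 1.99 CPM in the control, 3.57, 2.73 and 5.40 without Esrrb, 271, 245 and 232 without Nr5a2, and 716, 641 and 1334 without either, and in FCS/LIF it had 182 to 1913 CPM. Both genes thus were lowest in +E+N and highest in -E-N in 2i/LIF and were higher in every FCS/LIF library than in +E+N in 2i/LIF, while H19 moved far more. Within FCS/LIF H19 rose by 3.03 on the log2 scale in -E-N (edgeR adjusted p = 1.89e-05) and Mrpl23 did not move with it. The part of the locus in the values of Mrpl23 was not tested. A pseudogene row, Mrpl23-ps1, had at most 83 counts in a library.

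Mrpl50 and Mrpl9, the counterpart of a bacterial large subunit protein, were the other members that rose in -E-N in 2i/LIF. Mrpl50 stood at 54.7, 52.0 and 46.7 CPM in +E+N and at 69.0, 66.9 and 65.2 CPM in -E-N (0.41, SE 0.07, edgeR adjusted p = 0.0004839). In FCS/LIF it went the other way, from 66.2 and 64.9 CPM to 51.9 and 53.9 (-0.33, SE 0.06, edgeR adjusted p = 0.001445). The groups overlapped in neither medium. Zfp189, whose start lies 83 bases upstream on the other strand, had log2 fold changes of 0.47 (SE 0.14, edgeR adjusted p = 0.0199) in 2i/LIF and 0.12 (SE 0.12, edgeR adjusted p = 0.459) in FCS/LIF. Mrpl9 stood at 47.9, 40.6 and 41.7 CPM in +E+N and at 53.6, 57.5 and 59.9 in -E-N in 2i/LIF (0.41, SE 0.09, edgeR adjusted p = 0.004124), and at 45.4 to 51.1 CPM in all libraries of FCS/LIF.

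**Figure D4:**
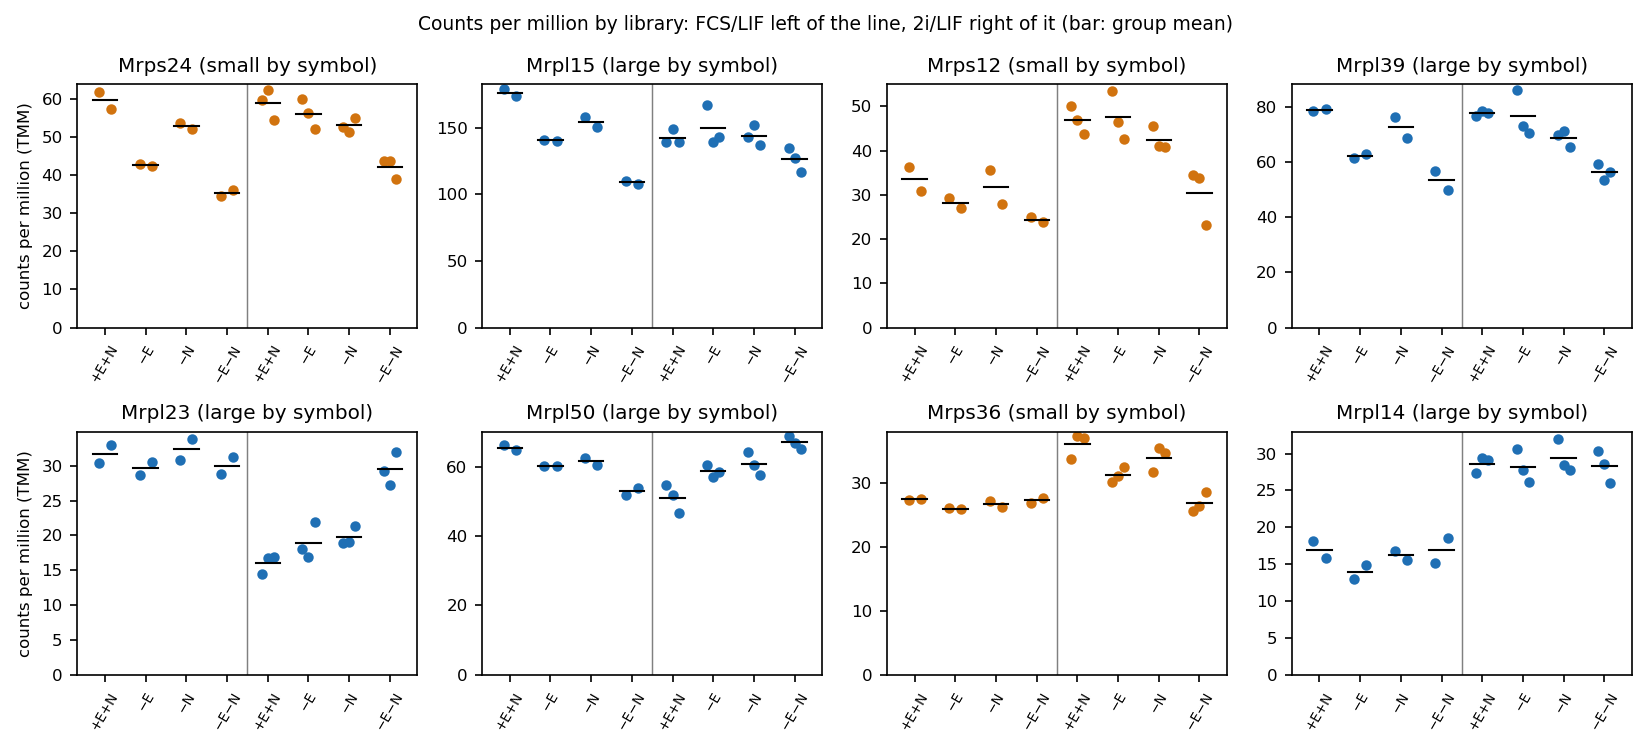
CPM (TMM scale, axes from 0) of 8 members in each of the 20 libraries, by state, with FCS/LIF left and 2i/LIF right of the vertical line; bars are group means. Mrps24 and Mrpl15 are lowest in -E-N in FCS/LIF, Mrpl23 is low in +E+N, -E and -N in 2i/LIF only, and Mrpl14 differs by medium.

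Against -N, -E-N in 2i/LIF had 8 members lower (10.3%, 3 large and 5 small) and 1 higher, where 9.77% of all genes fell and 9.7% rose. Mrpl23 rose by 0.60 (SE 0.11, edgeR adjusted p = 0.003119) and alone passed the study's limits, which 6.76% of all genes passed. Mrps12 fell by 0.46 (SE 0.13, edgeR adjusted p = 0.02965), Mrpl47 by 0.33 (SE 0.09) and Mrps36 by 0.32 (SE 0.08), while Mrps22 (-0.22, SE 0.07) and Mrpl28 (-0.20, SE 0.06) fell least. The call of Mrps12 was lost without -E-N replicate 3 (-0.30, edgeR adjusted p = 0.0745) or any library of -N. The count of members called was 3 without -E-N replicate 3 or -N replicate 2, and 5 without -N replicate 1 or 3. Mrpl23 and Mrps31 were called whichever library was left out. The replicate numbers paired these samples, and with the replicate block 17 members fell and 3 rose. The share of all genes called with the block, here and for the interaction below, is not given, and the shares printed are from the fit without it. The interaction of the losses was called for 0 members in edgeR (14 with an unadjusted p under 0.05, 1 in DESeq2), where 1.39% of all genes were called. With the replicate block it was called for 4 members, all below 0: Mrps12 (-0.49, SE 0.12, edgeR adjusted p = 0.029), Mrps31 (-0.35, SE 0.08), Mrps14 (-0.32, SE 0.08) and Mrpl58 (-0.31, SE 0.09). Without the block the estimates lay below 0 for 66 of 78 members, with a median of -0.12. For this interaction neither the median of all genes nor their share at an unadjusted p under 0.05 is given. These values of the members thus have no background beside them.

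The change in -E-N was also compared between media in 1 fit. It differed for 6 members, where the difference was called lower in 2i/LIF for 12.4% and higher for 11.2% of all 16147 genes. Mrpl23 (0.96, SE 0.16, edgeR adjusted p = 0.000297), Mrpl50 (0.70, SE 0.09, edgeR adjusted p = 6.1e-05) and Mrpl15 (0.53, SE 0.11, edgeR adjusted p = 0.002373) changed more upwards, or less downwards, in 2i/LIF than in FCS/LIF, and these 3 were called whichever library was left out. Mrps17 (0.32, SE 0.11, edgeR adjusted p = 0.03863) and Mrps9 (0.31, SE 0.09, edgeR adjusted p = 0.02058), both counterparts of bacterial small subunit proteins, fell in FCS/LIF (edgeR adjusted p = 0.0002116 and 0.001343) and did not pass the test in 2i/LIF. Mrps36 differed the other way (-0.42, SE 0.10, edgeR adjusted p = 0.007407), a call that was lost without FCS/LIF -E-N replicate 2 (-0.36, edgeR adjusted p = 0.0531). For -E the difference between media was called for Mrps24 alone (0.42, SE 0.11, edgeR adjusted p = 0.042), where 3.47% of all genes were called, and this call was lost without any one of 8 of the 10 libraries. A block on the replicate number within each medium gave 12 members for -E and 12 for -E-N, and the share of all genes in that fit is not given. For -N the difference without the block was called for 0 members (3 with an unadjusted p under 0.05, 1 in DESeq2) and 2.97% of all genes.

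**Figure D5:**
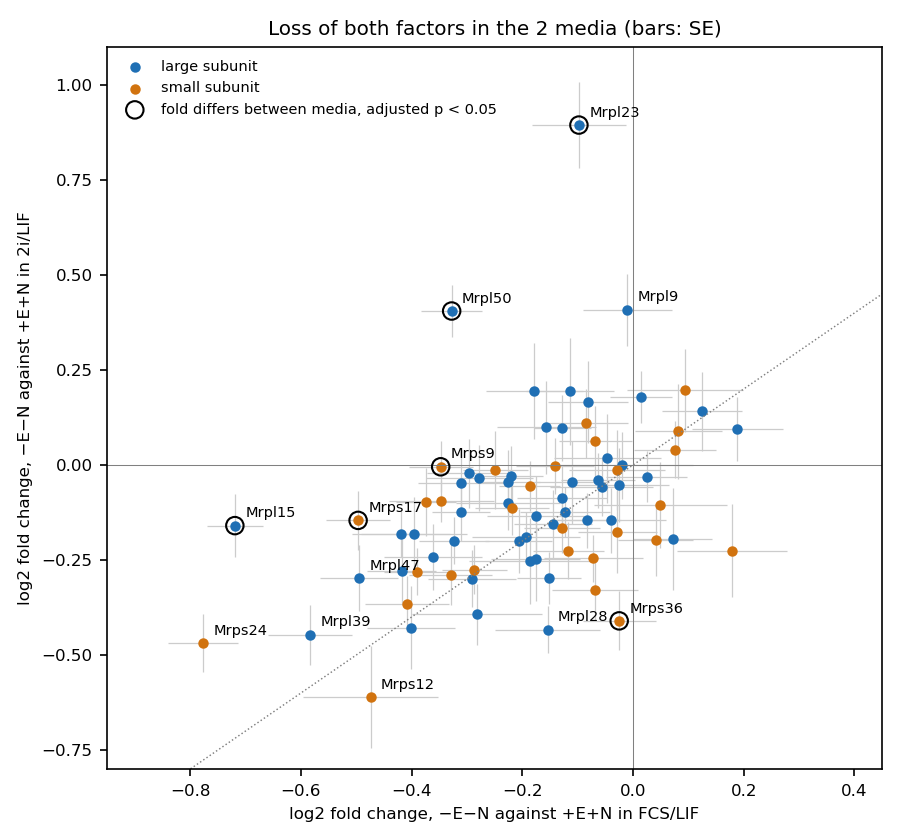
Log2 fold change of each member in -E-N against +E+N in FCS/LIF (horizontal) and in 2i/LIF (vertical), TMM scale, with standard errors as grey bars and the line of equal change dotted. Circled members had a difference between media that passed an adjusted p of 0.05: Mrpl23, Mrpl50, Mrpl15, Mrps9 and Mrps17 above the line and Mrps36 below it. On the TPM scale 10 members were called higher in FCS/LIF, unlike the points shown, and 0 with library medians set equal.

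In the control state the medium itself went with differences of the same size. In +E+N 31 members were higher and 6 lower in 2i/LIF than in FCS/LIF, 37 of 78 (47.4%), where 30.9% of all genes were higher and 29.4% lower. On log2(TPM + 1) 31 were higher and 13 lower. The shares were 18 of 49 large and 13 of 29 small subunit genes for the higher ones. The study's limits were passed by 5 members and 34.7% of all genes. Mrpl14 stood at 27.3 to 29.4 CPM in 2i/LIF and at 18.1 and 15.8 in FCS/LIF (0.76, SE 0.11, edgeR adjusted p = 1.9e-05), followed by Mrpl43 (0.68, SE 0.13) and Mrps10 (0.64, SE 0.09). The lowest were Mrpl23 (-0.98, SE 0.11, edgeR adjusted p = 7.782e-07), Mrpl34 (-0.59, SE 0.12) and Mrps21 (-0.49, SE 0.09). The libraries of the 2 media are separate sets of different depth, so medium and set cannot be told apart here.

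By symbol, the medians of the large and small subunits lay at most 0.064 apart in the state comparisons. The median log2 fold change of the large subunit genes minus that of the small subunit genes was -0.047 in -E-N in FCS/LIF and 0.046 in 2i/LIF, and between -0.021 and 0.064 in the other state comparisons. Libraries of the same state differed in this quantity with a standard deviation of 0.011 (FCS/LIF) or 0.040 (2i/LIF). In FCS/LIF the value of -E-N was -0.043 and -0.064 in the 2 libraries taken singly, and between -0.035 and 0.006 in the other 6, so the groups did not overlap, but with +E+N replicate 1 left out it was 0.006. In 2i/LIF the -E-N libraries gave 0.013, 0.068 and 0.042, within the range of -E (-0.021 to 0.100). Counting Mrps30 and Mrps18a with the large subunit and leaving out Mrps36 gave -0.041 and 0.068. Members with a bacterial counterpart and those without one had medians of -0.16 and -0.15 in -E-N in FCS/LIF, and of -0.14 and -0.08 in 2i/LIF.

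Of the genes whose symbols mislead, Mrps30, in the large subunit, fell by 0.19 in -E-N in FCS/LIF (SE 0.06, edgeR adjusted p = 0.02223), a call lost in DESeq2 and without any of 3 of the 4 libraries (+E+N replicate 1 or 2, or -E-N replicate 2), and its change was -0.06 in 2i/LIF (SE 0.07). The Mrps18 paralogues, of which Mrps18a lies in the large and Mrps18b and Mrps18c in the small subunit, did not pass the edgeR test in any of the 8 state comparisons, with log2 fold changes in -E-N of 0.08, -0.03 and -0.03 in FCS/LIF and 0.09, -0.18 and -0.01 in 2i/LIF. On log2(TPM + 1) in FCS/LIF Mrps18a (0.26, SE 0.07, limma adjusted p = 0.0244) and Mrps18b (0.15, SE 0.05, limma adjusted p = 0.0442) were called higher in -E-N, for Mrps18b the opposite sign, as was Mrps36 (0.15, SE 0.05, limma adjusted p = 0.0457). The change of Mrps30 was -0.02 on that scale (SE 0.06, limma adjusted p = 0.82). With library medians set equal 0 members were called higher in this comparison. Of the proteins of the large subunit stalk, which recruits translation factors, Mrpl12 fell by 0.31 in -E-N in FCS/LIF (SE 0.08, edgeR adjusted p = 0.01075, lost without +E+N replicate 1 or -E-N replicate 1) and Mrpl10 fell by 0.30 in 2i/LIF (SE 0.07, edgeR adjusted p = 0.003913). Neither of these 2 was among the members that fell in both media, Mrpl10 having -0.15 in FCS/LIF (edgeR adjusted p = 0.0592). Mrpl11, which joins them at the stalk base, passed in neither medium, with -0.13 in FCS/LIF and 0.10 in 2i/LIF.

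Other genes of mitochondrial translation were counted the same way in -E-N, to be read against the 21.8% of all genes that fell and 24.9% that rose in FCS/LIF and the 21.0% and 19.9% in 2i/LIF. Of the mitoribosomal proteins that bear other names 2 of 5 fell in FCS/LIF, Gadd45gip1 by 0.65 (SE 0.10, edgeR adjusted p = 0.0008832), and 0 of 5 in 2i/LIF in edgeR (0 with an unadjusted p under 0.05). Of 23 assembly factors 9 fell and 1 rose in FCS/LIF, and 5 fell and 3 rose in 2i/LIF; Tfb1m, which methylates the small subunit rRNA, fell by 0.53 (SE 0.09) in FCS/LIF, and Mrm2, an rRNA methyltransferase of the large subunit, by 0.53 (SE 0.16) in 2i/LIF. Of 17 mitochondrial aminoacyl-tRNA synthetases 6 fell in FCS/LIF and 2 in 2i/LIF, and 0 rose in either, while 0 of 3 subunits of the glutamyl-tRNA amidotransferase (Gatb, Gatc and Qrsl1) were called in edgeR (0 and 1 with an unadjusted p under 0.05); Vars2 had the lowest value in FCS/LIF (-0.38, SE 0.07) and Aars2 in 2i/LIF (-0.30, SE 0.07). Of 12 translation factors tested 3 fell in FCS/LIF, and 2 fell and 2 rose in 2i/LIF. The elongation factor Tsfm fell by 0.37 (SE 0.07) and 0.40 (SE 0.07), and the recycling factor Mrrf rose by 0.48 (SE 0.08) in 2i/LIF. Of 8 genes of mitochondrial transcription and mRNA stability 5 fell in FCS/LIF and 1 in 2i/LIF, in both of which the transcription elongation factor Tefm was lowest (-0.79, SE 0.08, and -0.30, SE 0.11). Of 9 nuclear regulators tested 1 rose and 2 fell in each medium. Mycn fell by 0.68 (SE 0.05) in FCS/LIF and rose by 0.68 (SE 0.19) in 2i/LIF. Gabpa, the DNA-binding subunit of the ETS factor named above, fell in both (by 0.45, SE 0.06, and by 0.65, SE 0.06), Ppargc1b fell by 0.91 (SE 0.24) in 2i/LIF and Nrf1 rose by 0.27 (SE 0.09) in FCS/LIF. Of the 13 mRNAs of the mitochondrial genome, the templates of this ribosome, 9 fell in FCS/LIF (median -0.34) and 1 in 2i/LIF (median -0.05), mt-Nd3 being the lowest in both (-0.69, SE 0.07, and -0.37, SE 0.13). The shift of 0.13 between the TMM and TPM scales in FCS/LIF touches these counts as well.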

How the data were processed

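Poly(A) RNA of 20 ESC libraries was sequenced as stranded read pairs. According to the study's methods, the authors aligned reads to mm10 with STAR and quantified genes with RSEM, and deposited estimated counts (rounded to whole numbers) and TPM per gene and library; the annotation used is not given in the sources used here. Bowtie2, also in the submitters' processing notes, has no stated role for these tables. The 92 spike-in rows (all at 0) were left out. Groups came from the labels.

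Counts were tested with edgeR 4.0.16 (quasi-likelihood, TMM) in R 4.3.3, with Benjamini-Hochberg adjustment over all genes. The 4 states of a medium shared a fit, for which a gene needed 20 or more counts in each replicate of some state (15636 genes passed in FCS/LIF, 14355 in 2i/LIF); media were compared in a fit of all 8 groups (16147 genes). CPM in the text are on the TMM scale of the 20 libraries. Calls were made at an adjusted p under 0.05; the study's limits were applied beside it. As alternatives, DESeq2 1.42.0 was run on the counts and limma 3.58.1 on log2 TPM with a pseudocount of 1 or 0.1. The scripts were tested on simulated data. Coordinates are GENCODE vM21 (mm10).

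The members and the gene lists were chosen with earlier results of these data known. Named were members past the study's limits, the 3 highest and 3 lowest fold changes among called members of a comparison, misleading symbols and paralogues (Mrps18a, Mrps18b, Mrps18c, Mrps30, Mrps36), the stalk proteins, the 3 highest and 3 lowest levels, and the extremes of other lists; Mrps9, Mrps14, Mrps2, Mrps17, Mrps23, Mrps31, Mrpl58, Gabpa, Nrf1 and the neighbouring genes were chosen for naming once their values were known.

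Replicates of each state differed beyond sampling noise. Same-numbered libraries of 2i/LIF deviated together (correlation of deviations over 0.1 for every number) between +E+N and -E, +E+N and -N, and -N and -E-N. Between +E+N and -E-N the correlations were 0.375, -0.0126 and 0.357 for replicates 1, 2 and 3, so replicate 2 alone missed this limit. In FCS/LIF, with 2 numbers, both numbers give the same correlation for a pair of states. It was 0.36 between +E+N and -N, 0.119 between -N and -E-N, 0.109 between +E+N and -E-N and 0.0361 between +E+N and -E. The main counts of all comparisons are from fits without the block.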

Additional observations from a re-analysis of the deposited data

Results flagged for a closer look

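In 7 members the change differed between media, by the test of the difference itself (edgeR adjusted p under 0.05, the change in 2i/LIF minus that in FCS/LIF, log2 scale). For -E-N against +E+N these were Mrpl23 (0.96), Mrpl50 (0.70), Mrpl15 (0.53), Mrps17 (0.32), Mrps9 (0.31) and Mrps36 (-0.42). For -E against +E+N it was Mrps24 (0.42).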

How the results depend on the processing

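Of 554 alternative values for 67 called log2 fold changes, 437 stayed past the threshold, 117 did not (87 with a library left out, 24 on TPM, 6 in DESeq2) and 0 changed sign; values that were not called could change sign, as Mrps18b did on TPM in -E-N in FCS/LIF. The causes were not tested. The counts of members called moved as follows. For -E in FCS/LIF DESeq2 gave 7, a fit of all 20 libraries 6, and TPM with either pseudocount or with medians set equal 5. For -E-N against -N in FCS/LIF the fit of all libraries gave 12, TPM 6 with either pseudocount, and TPM with medians set equal (chosen after seeing the data) 12; for the same contrast in 2i/LIF the first gave 17 and TPM 14 with either pseudocount. For -E in 2i/LIF DESeq2 and the fit of all libraries gave 2, and TPM 1 with either pseudocount. For -N in 2i/LIF TPM with medians set equal and the fit without a filter gave 0. For the interaction in 2i/LIF DESeq2 and the fit of all libraries gave 1. For the difference between media DESeq2 gave 3 (-E) and 1 (-N); for -E DESeq2 size factors, filterByExpr and log2(TPM + 0.1) gave 0 and log2(TPM + 1) 2, and for -E-N TPM gave 12 (pseudocount 0.1) and 13 (pseudocount 1). The study's limits gave 0 for -E and -N, 2 for -E-N in each medium, 1 for -E-N against -N in each, and 5 between media.

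With the replicate block, the counts in FCS/LIF were 18 (-E), 2 (-N), 34 (-E-N) and 23 (-E-N against -N). In 2i/LIF they were 4, 6, 33 and 20. The interaction in 2i/LIF gave 4, the medium in +E+N 47, and the difference between media 12 (-E), 1 (-N) and 12 (-E-N). The shares of all genes called with the block are not given, so these counts have no background beside them.

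With 1 library left out, the counts ranged from 2 to 10 (-E), 20 to 33 (-E-N) and 8 to 19 (-E-N against -N) in FCS/LIF, and from 0 to 2 (-E), 0 to 1 (-N), 20 to 22 (-E-N) and 3 to 8 (-E-N against -N) in 2i/LIF. They were 27 to 38 between media, and 0 to 1 (-E), 0 to 1 (-N) and 4 to 7 (-E-N) for the difference between media. The large minus small subunit difference ranged in FCS/LIF from -0.050 to 0.006 (-E), -0.034 to -0.026 (-N), -0.080 to 0.006 (-E-N) and -0.025 to 0.025 (-E-N against -N), in 2i/LIF from 0.028 to 0.079, 0.015 to 0.056, 0.030 to 0.071 and 0.004 to 0.035, and between media from -0.031 to 0.019. With the 5 proteins under other names it was -0.035 (-E-N) and 0.004 (-E-N against -N) in FCS/LIF. On log2(TPM + 1) it was -0.033 and 0.023 there, 0.046 for -E-N against -N in 2i/LIF and -0.034 between media. All members passed the filter on low counts, the lowest count in a library being 298. The part of depth in the precision was not tested, and each state had 2 or 3 libraries.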
